A study of Picea abies with 36 samples.

Results

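The genes described here were higher under auxin and lower under cytokinin in the hypocotyl of Norway spruce (Picea abies). They were chosen from the counts themselves. For each gene, the mean CPM (counts scaled to a common library total of 1e6) of a treatment on a day plus 1 was divided by the same value for mock, and the log2 of this ratio was averaged over the days. A gene passed with a mean of at least 0.5 under auxin and at most -0.5 under cytokinin, which 339 of the 70736 genes in the table did. The 150 genes with the largest score, the smaller absolute value of both means, were kept as members. All 150 passed the filter on low counts that left 38732 genes for testing. The values under each single hormone were thus used to choose the members and are given as a description.

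The study treated seedlings so that auxin- and cytokinin-responsive genes of the spruce hypocotyl could be found. The main natural auxin, indole-3-acetic acid (IAA, 50 mM), the synthetic cytokinin 6-benzylaminopurine (BAP, 135 mM), both (BAP+IAA) or neither (mock) were given in lanolin on the middle of the hypocotyl, and this region was collected after 5, 10 and 15 days. All seedlings were wild type and of 1 seed source. Each of the 12 groups had 3 libraries of several pooled plants, 36 in all. A figure legend of the study gives the BAP dose in µM, not in mM, so the applied dose is uncertain.

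Auxin and cytokinin are the plant hormones whose balance sets much of cell division, vascular development and regeneration. Auxin binds a receptor complex that leads to the breakdown of Aux/IAA repressor proteins, and so frees auxin response factors to act on their targets. Cytokinin is sensed by histidine kinases, which pass a phosphate to response regulators that act on transcription. Both pathways meet at many genes, and each hormone can change the synthesis, transport and inactivation of the other.

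Total counts ranged from 13188942 to 23110495 per library. In the middle hypocotyl, the phloem marker PaAPL-like (1.59 to 5.59 CPM), the xylem marker PaVND4-like (5.04 to 80.9 CPM) and the cell division marker PaCDKB2;2-like (50.6 to 131 CPM) were detected in all 36 libraries. The median of PaVND4-like was 36.9 CPM under IAA, 22.5 CPM under BAP and 16.2 CPM under BAP+IAA, against 61.4 CPM in mock. The median of PaCDKB2;2-like was 85.6 CPM under IAA, 102 CPM under BAP and 103 CPM under BAP+IAA, against 56.4 CPM in mock. All BAP libraries of this marker (80.4 to 131 CPM) lay above mock (50.6 to 78.9 CPM), while IAA and BAP+IAA overlapped with mock. PaERF115-like, named for a wound response factor of Arabidopsis, had a median of 8.23 CPM under IAA, 2.07 CPM under BAP and 15.1 CPM under BAP+IAA, against 0.106 CPM in mock, where 3 of 9 libraries were at 0. The xylem marker PaPRX66-like had medians of 3.48, 2.20 and 3.13 CPM under IAA, BAP and BAP+IAA, against 0.267 CPM in mock. PaWOX13-like had 4.31 to 6.21 CPM under IAA, 1.17 to 4.17 CPM under BAP and 0.954 to 4.5 CPM under BAP+IAA, against 0.813 to 2.22 CPM in mock. Its IAA libraries thus all lay above mock. PaWIND1-like had medians of 0.675 CPM under IAA, with 1 library at 0, 3.85 CPM under BAP and 2.15 CPM under BAP+IAA, against 2.56 CPM in mock. The summed level of the 7 markers was 113 to 159 CPM under IAA, 116 to 168 CPM under BAP, 111 to 162 CPM under BAP+IAA and 107 to 149 CPM in mock. PaVND4-like and PaCDKB2;2-like had the highest medians of the 7. Under each treatment the former was below and the latter above mock by median. Similar sums thus do not show a similar make-up of the tissue. The part of these differences in the results was not tested. In these bulk samples, fewer cells of a type and less RNA per cell cannot be told apart.

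Of the members, 71 had a description in the supplementary tables of the study, which cover only part of the genes, and 67 of these named a protein or a family. The other 79 are known only by their IDs. Where the description is given below, it is a match by similarity, and roles known from other plants are named as such. Read assignment among near-identical copies is not stated, so values of genes from large families are uncertain.

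Together the 150 members held 0.529% to 0.625% of all counts in IAA libraries on day 5, 1.15% to 1.21% on day 10 and 1.13% to 1.32% on day 15. They held 0.115% to 0.168% in BAP libraries. In BAP+IAA libraries they held 0.232% to 0.307% on day 5, against 0.252% to 0.259% in mock. On day 10 they held 0.297% to 0.325% under BAP+IAA, against 0.244% to 0.305% in mock, and on day 15 0.256% to 0.289%, against 0.334% to 0.353%. By this sum, BAP+IAA libraries overlapped with mock on days 5 and 10 and lay below it on day 15, and all IAA libraries lay above both. The sum leans on a few highly expressed members, since only 3 had a mean mock CPM of at least 100. The highest, MA_5735g0010, had a mean of 861 CPM in mock and 1066 CPM under BAP+IAA. The sum thus does not give the direction of most members.

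**Figure D1:**
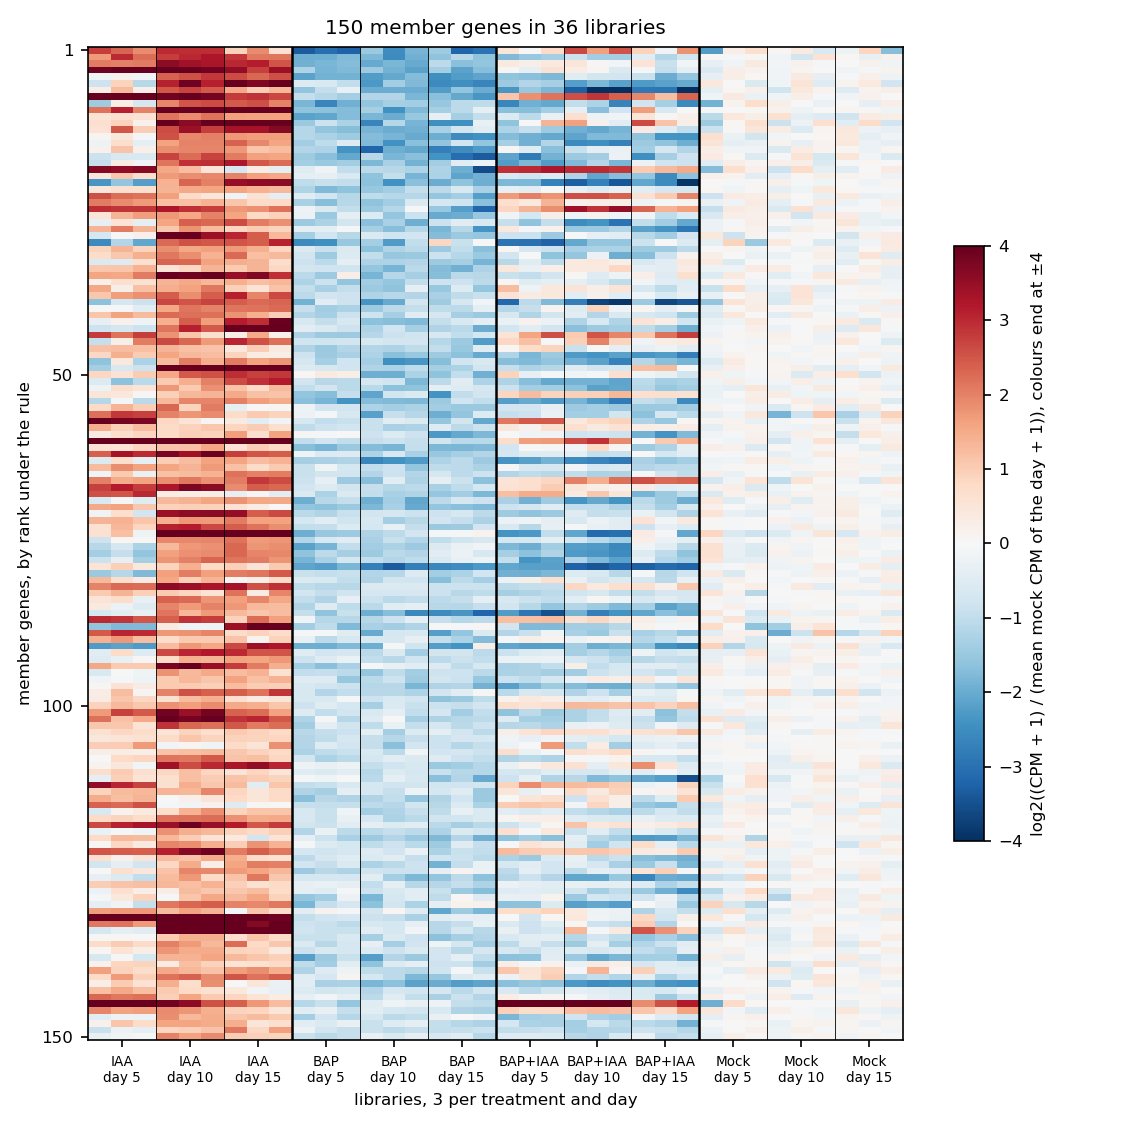
Heat map of the 150 members (rows, by rank) in 36 libraries (columns, 3 for each treatment and day), coloured by log2((CPM + 1) / (mean mock CPM of the day + 1)), with colours ending at ±4. The IAA and BAP blocks were used to choose the rows. In the BAP+IAA block, which was not used, blue rows outnumber red ones, with 71 members called lower and 12 higher in the average of days.

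Under IAA, the fitted log2 fold change against mock had a median over the members of 0.86 on day 5, 1.99 on day 10 and 1.71 on day 15. Fold changes are from 1 edgeR model of all 36 libraries, and calls needed an absolute log2 fold change above 1 and a p below 0.05 after Benjamini-Hochberg adjustment. On day 5, 67 members were called higher and 10 lower, on day 10 137 higher and 0 lower, and on day 15 111 higher and 0 lower. Over all tested genes, 11.3%, 10.1% and 9.86% were called higher and 12.2%, 8.63% and 5.99% lower on these days. Under BAP, the medians were -1.41, -1.67 and -1.60, and 90, 115 and 105 members were called lower on days 5, 10 and 15, with 0 higher. Over all tested genes, 5.81%, 7.89% and 8.19% were called lower and 3.04%, 4.99% and 7% higher. Since both contrasts chose the members, nothing is read from these counts. One member, MA_10270336g0010, had a fitted average below 0 under IAA (-0.43). It had 0, 0.0865 and 0 CPM on day 5, 10.2, 14.7 and 13 CPM on day 10 and 73.2, 130 and 111 CPM on day 15 under IAA, against 8.13, 1.1 and 2.09 CPM on day 5, 3.1, 5.07 and 3.04 CPM on day 10 and 17.2, 8.98 and 6.8 CPM on day 15 in mock. IAA thus lay below mock on day 5 and above it on days 10 and 15.

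The highest score belonged to MA_15278g0010, which has no description. It had 66.3, 48.6 and 36.3 CPM on day 5, 48.6, 47.3 and 47.1 CPM on day 10 and 17.5, 35.2 and 13.9 CPM on day 15 under IAA, and 0 to 2.64 CPM under BAP, against 1.13 to 16.6 CPM in mock. IAA lay above mock on days 5 and 10, BAP below it on the same days, and both overlapped with mock on day 15. Next in score was MA_10107572g0010, an endoglucanase 1-like gene of the enzymes that cut beta-1,4-glucan chains of the cell wall, with 11.6 to 53.6 CPM under IAA and 0 to 2.14 CPM under BAP, against 2.47 to 7.67 CPM in mock. The next 3 had no description. MA_894565g0010 had 20.3 to 51.1 CPM under IAA and 0.0662 to 1.61 CPM under BAP, against 3.03 to 5.79 CPM in mock. MA_86195g0010 had 66.2 to 227 CPM under IAA and 0.992 to 3.11 CPM under BAP, against 5.5 to 10.7 CPM in mock. In both genes the 9 IAA libraries lay above, and the 9 BAP libraries below, all 9 mock libraries. MA_86938g0010 had 8.98, 11.6 and 9.52 CPM under IAA on day 5, within the mock range of 6.87 to 12.2 CPM over all days, and 49.8, 56.9 and 69.6 CPM on day 10, above it.

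At the end of the list, the rule score was 0.7081 for MA_12160g0010 and 0.7075 for MA_10428092g0010, the last members, and 0.7059 for MA_118970g0010 and 0.7049 for MA_1356g0010, the first genes outside. The members thus end where the score has no gap.

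The libraries with both hormones were not used by the rule, though their comparison shares the mock libraries with it. They address which hormone's direction the members took when both were given. In the average of days, 71 members fell and 12 rose under BAP+IAA against mock (edgeR quasi-likelihood test, adjusted over all 38732 genes), and 67 were not called. Over all tested genes, 12.4% were called lower and 11.8% higher. The median log2 fold change of the members was -0.91, with quartiles of -1.93 and -0.09, against 0.02 over all tested genes. On single days, 64 members fell and 14 rose on day 5 (background 11% lower and 10.2% higher), 64 fell and 17 rose on day 10 (11.5% and 10%), and 62 fell and 12 rose on day 15 (11.2% and 11.4%). The medians were -0.92, -0.93 and -0.82 on these days, against 0.01, 0.00 and 0.02 over all tested genes.

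**Figure D2:**
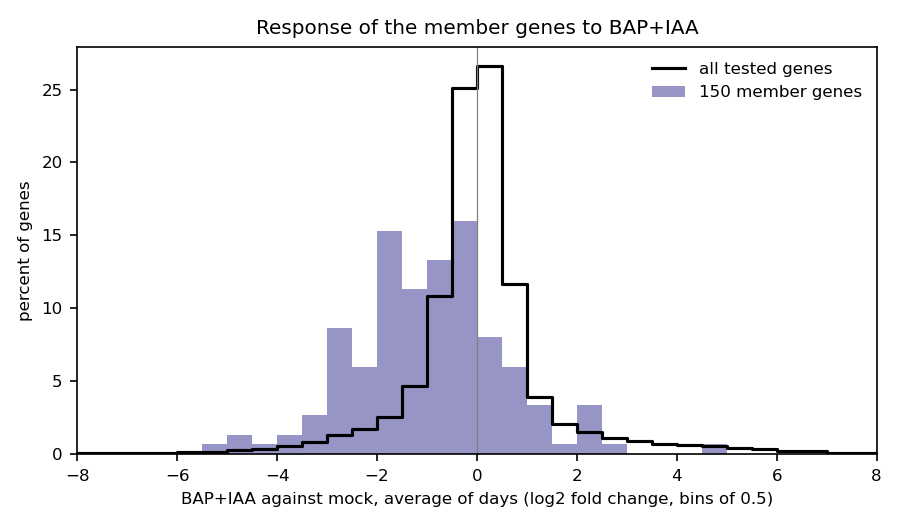
Distribution of the log2 fold change of BAP+IAA against mock in the average of days, in bins of 0.5, as percent of the 150 members (bars) and of all 38732 tested genes (line). The members' median is -0.91 and that of all tested genes 0.02.

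On all 3 days, 36 members were called lower and 6 were called higher. On at least 1 day, 88 were called lower and 23 higher, and 43 were called on no day. In both directions on different days, 4 members were called, and they are described below. For these counts over several days no share over all tested genes is given, so they are a description. Without a fold threshold or a model, all 3 BAP+IAA libraries lay below all 3 mock libraries in 72, 79 and 77 members on days 5, 10 and 15, against 25.3%, 26% and 24% of all tested genes. They lay above in 23, 27 and 15 members, against 27.1%, 26.4% and 28.6% of all tested genes.

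**Figure D3:**
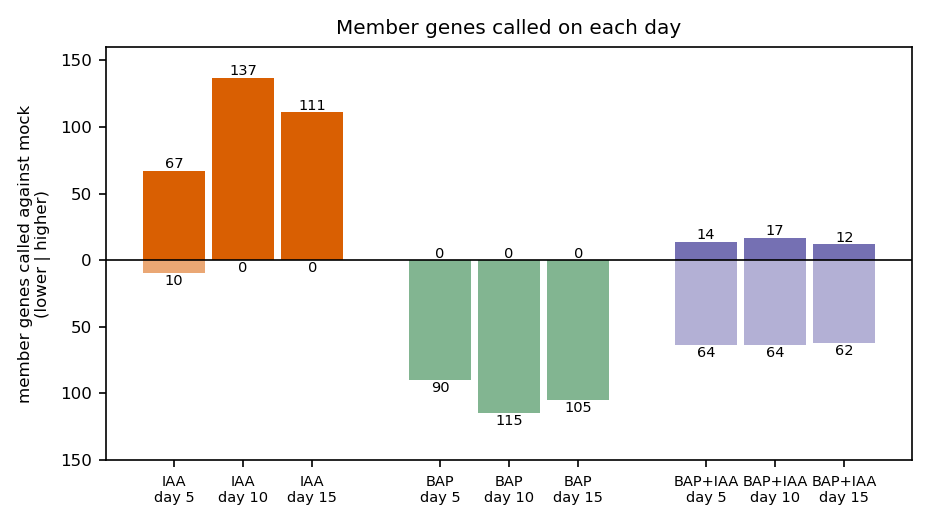
Number of members called against mock under IAA, BAP and BAP+IAA (x axis, days 5, 10 and 15), with genes called higher drawn upward and genes called lower downward. The IAA and BAP bars describe the choice of members. The BAP+IAA bars show 64, 64 and 62 members lower and 14, 17 and 12 higher.

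As a description of position, the fitted BAP+IAA level lay between the BAP and the IAA level in 95 members, below the BAP level in 51 and above the IAA level in 4. The median difference on the log2 scale was -2.64 from IAA and 0.63 from BAP. The 4 members above IAA were MA_15539g0010, MA_3069g0010, MA_27243g0010 and the 9-cis-epoxycarotenoid dioxygenase gene MA_10428505g0020, by 0.87, 0.79, 0.51 and 0.48. Since the IAA and BAP libraries chose the members, no test is given.

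In the groups of members that follow, counts stand beside the 71 of 150 members and the 12.4% of all tested genes called lower, and nothing is read from them as particular to a group. Under BAP+IAA, both members described as genes of other hormones rose, the 1 cytokinin gene fell, and of 3 auxin and LOB domain genes 2 fell and 1 was not called. The 9-cis-epoxycarotenoid dioxygenase gene MA_10428505g0020, of the family that catalyses the committed step of abscisic acid synthesis, had 2.87, 7.04 and 15.1 CPM on day 5, 3.63, 11.7 and 7.59 CPM on day 10 and 3.96, 9.61 and 15 CPM on day 15 under BAP+IAA, against 1.31, 1.83 and 1.98 CPM on day 5, 1.55, 1.2 and 0.905 CPM on day 10 and 1.64, 1.38 and 1.06 CPM on day 15 in mock. The groups did not overlap on any day, and the gene rose in the average of days (log2 fold change 2.57, SE 0.35, adjusted p = 3.07e-07). Under IAA it had 1.68 to 17.9 CPM and under BAP 0 to 0.515 CPM. The GAST1-like gene MA_24001g0010, of a family of gibberellin-regulated small proteins, also rose (log2 fold change 1.36, SE 0.34, adjusted p = 0.00103). Its 3 BAP+IAA libraries were above mock on days 5 and 10 but overlapped on day 15, with 0.66, 0.818 and 2.66 CPM under BAP+IAA against 1.05, 1.38 and 0.496 CPM in mock.

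The cytochrome P450 gene CYP734A1 (MA_15954g0010) is named for an enzyme that inactivates brassinosteroids in Arabidopsis. It had 2.54, 5.77 and 5.93 CPM on day 5, 10.5, 13 and 5.98 CPM on day 10 and 1.08, 3.34 and 4.49 CPM on day 15 under BAP+IAA, against 1, 0.877 and 1.45 CPM on day 5, 0.148, 0.734 and 1.81 CPM on day 10 and 0.643, 1.14 and 1.56 CPM on day 15 in mock. The groups were apart on days 5 and 10 and overlapped on day 15. It rose in the average of days (log2 fold change 2.26, SE 0.35, adjusted p = 2.97e-06). Its level under IAA, 33.5 to 136 CPM, was above that of every BAP+IAA library, and under BAP it was 0 to 0.258 CPM.

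The LOG3 gene MA_12058g0010, named for an enzyme that releases active cytokinin from its nucleotide, had 1.17, 1.44 and 1.88 CPM on day 5, 1.04, 1.04 and 0.747 CPM on day 10 and 1.2, 0.681 and 1.7 CPM on day 15 under BAP+IAA, against 3.5, 2.85 and 2.3 CPM on day 5, 2.22, 3.4 and 3.46 CPM on day 10 and 3.97, 3.11 and 2.62 CPM on day 15 in mock. BAP+IAA lay below mock on every day, and the gene fell (log2 fold change -1.37, SE 0.22, adjusted p = 2.64e-06). In BAP libraries it had 0 to 0.633 CPM, and in IAA libraries 3.22 to 10.8 CPM.

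The Aux/IAA gene MA_18664g0010, described as IAA26-like and so of the repressors that auxin removes, had 12.1 to 24.9 CPM under BAP+IAA, against 41.9 to 61.6 CPM in mock, with no overlap, and fell (log2 fold change -1.69, SE 0.12, adjusted p = 3.6e-13). Both other genes were described as LOB domain-containing 15, a family of transcription factors of which many respond to auxin in Arabidopsis. MA_12160g0010 had 0, 0.0602 and 0.0988 CPM on day 5, 0, 0.115 and 0.115 CPM on day 10 and 0.42, 0.341 and 0.136 CPM on day 15 under BAP+IAA, against 0.688, 1.02 and 1.29 CPM on day 5, 1.18, 1.94 and 1.44 CPM on day 10 and 1.69, 1.5 and 1.35 CPM on day 15 in mock. The groups were apart on every day, and the gene fell (log2 fold change -3.47, SE 0.39, adjusted p = 5.3e-09). The size of this fold rests on 0 to 7 reads in each BAP+IAA library. MA_9412105g0010, which the study also lists among its graft transcription factors, had 1.44 to 5.58 CPM under BAP+IAA, against 2.78 to 6.5 CPM in mock. Its log2 fold change of -0.74 (SE 0.16, adjusted p = 0.000233) was under the fold threshold. The HLS1 gene MA_106402g0010 encodes a probable N-acetyltransferase whose Arabidopsis namesake is needed for the apical hook. It had 1.04, 0.241 and 1.38 CPM on day 5, 1.18, 1.27 and 4.02 CPM on day 10 and 0.84, 3 and 4.63 CPM on day 15 under BAP+IAA, against 10, 8.26 and 5.04 CPM on day 5, 4.58, 7.61 and 2.66 CPM on day 10 and 13, 8.2 and 5.67 CPM on day 15 in mock. The groups overlapped on day 10 alone, and it fell (log2 fold change -1.99, SE 0.33, adjusted p = 7.5e-06).

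Of the 9 cell wall members, 5 fell under BAP+IAA, none rose and 4 were not called, with a median log2 fold change of -1.13 for the group. The endoglucanase 1-like gene MA_10107572g0010 had 0.13, 0.361 and 0.494 CPM on day 5, 2.22, 1.21 and 1.32 CPM on day 10 and 4.02, 1.98 and 3.06 CPM on day 15 under BAP+IAA, against 3, 2.63 and 2.95 CPM on day 5, 4.21, 2.47 and 7.67 CPM on day 10 and 6.14, 4.49 and 6.59 CPM on day 15 in mock. All BAP+IAA libraries lay below the mock libraries of their day, and the gene fell (log2 fold change -1.88, SE 0.29, adjusted p = 1.87e-06). The pectinesterase-like gene MA_130858g0010, of the enzymes that remove methyl groups from pectin, had 0, 0.241 and 0.296 CPM on day 5, 0.074, 0.231 and 0.0575 CPM on day 10 and 1.02, 0.341 and 0.545 CPM on day 15 under BAP+IAA, against 0.375, 0.439 and 1.61 CPM on day 5, 1.26, 1.94 and 1.97 CPM on day 10 and 1.75, 0.898 and 1.35 CPM on day 15 in mock. It fell (log2 fold change -2.31, SE 0.44, adjusted p = 4.79e-05), though groups overlapped on day 15. The probable pectinesterase/pectinesterase inhibitor 34 gene MA_177599g0010 had 10.8 to 25.3 CPM under BAP+IAA, against 9.75 to 32.5 CPM in mock, and was not called (log2 fold change -0.13, SE 0.19, adjusted p = 0.576).

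Xyloglucan endotransglucosylases cut and rejoin the xyloglucan that ties cellulose fibrils. The gene described as hydrolase 23 of this family, MA_10389761g0010, had 2.87, 3.13 and 5.09 CPM on day 5, 3.11, 3.12 and 5.29 CPM on day 10 and 2.04, 4.97 and 3.54 CPM on day 15 under BAP+IAA, against 4.69, 5.41 and 8.73 CPM on day 5, 1.92, 4.87 and 21.7 CPM on day 10 and 2.92, 5.69 and 17 CPM on day 15 in mock. The groups overlapped on all days, and mock replicate 3 was the highest mock library on each. The call in the average of days (log2 fold change -1.14, SE 0.37, adjusted p = 0.00867) was lost without mock day 10 replicate 3 or without mock day 15 replicate 3, which left log2 fold changes of -0.63 and -0.81. TRICHOME BIREFRINGENCE-LIKE 11 (MA_10428092g0010), of a family that acetylates wall polysaccharides in Arabidopsis, had 0.404 to 2.04 CPM under BAP+IAA, against 1.85 to 3.95 CPM in mock, and fell (log2 fold change -1.20, SE 0.18, adjusted p = 1.47e-06). The class VII chitinase gene MA_10099693g0010 was not called in the average of days (log2 fold change -0.55, SE 0.27, adjusted p = 0.0777), with 0.74, 1.62 and 0.747 CPM under BAP+IAA on day 10, against 2.81, 3 and 3.3 CPM in mock.

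The study lists wall gene families and graft transcription factors by ID. The graft factors were chosen by the study on other libraries. No laccase and no pectate or pectin lyase of these lists was a member, whereas 2 of the 63 listed pectin methyl esterases, 1 of the 23 beta-1,4-glucanases and 2 of the 64 graft transcription factors were. Of the 55 pectin methyl esterases tested, 15 rose and 10 fell under BAP+IAA, with a median log2 fold change of 0.52, against 0.02 over all tested genes. Of 23 beta-1,4-glucanases, 9 rose and 6 fell (median 0.45). Of 61 graft transcription factors, 21 rose and 9 fell (median 0.37). Of 62 laccases, 16 rose and 39 fell (median -3.16), and of 32 pectate and pectin lyases 14 rose and 9 fell (median 0.68). The background of 11.8% higher and 12.4% lower holds for these counts.

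The diterpene and tocopherol genes had IAA levels that differed widely between days. The cytochrome P450 720B1 gene MA_131290g0010 is described as abietadienol/abietadienal oxidase, which in loblolly pine oxidises precursors of the diterpene resin acids. It had 0.626, 4.37 and 0.338 CPM on day 5, 41, 72.8 and 42 CPM on day 10 and 139, 81.5 and 111 CPM on day 15 under IAA. It had 0.0652, 0.301 and 0.148 CPM on day 5, 0.074, 0.404 and 0.115 CPM on day 10 and 0.3, 0.409 and 0.545 CPM on day 15 under BAP+IAA, against 2.88, 1.9 and 0.965 CPM on day 5, 3.33, 6.01 and 2.45 CPM on day 10 and 5.9, 7.07 and 2.69 CPM on day 15 in mock. The IAA libraries overlapped with mock on day 5 and lay above it later, whereas the BAP+IAA libraries lay below mock on every day. The gene fell under BAP+IAA (log2 fold change -3.76, SE 0.48, adjusted p = 1.4e-07). The size of this fold rests on 1 to 8 reads in each BAP+IAA library.

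Tocopherols, the vitamin E compounds, are antioxidants made in the plastid, and 3 members had a description that names them. That of 2 reads probable tocopherol O-, chloroplastic, with the word for the enzyme missing. MA_10426411g0010 had 0.905, 2.25 and 1.08 CPM on day 5, 39.1, 75.4 and 60.2 CPM on day 10 and 217, 232 and 237 CPM on day 15 under IAA. It had 1.76, 1.8 and 0.494 CPM on day 5, 0.592, 1.33 and 0.46 CPM on day 10 and 3.6, 2.32 and 0.272 CPM on day 15 under BAP+IAA, against 8.57, 8.34 and 9 CPM on day 5, 16.6, 13.8 and 12.5 CPM on day 10 and 18.6, 16.5 and 19.8 CPM on day 15 in mock. Under IAA it lay below mock on day 5 and above it on days 10 and 15, and under BAP+IAA it lay below mock throughout and fell (log2 fold change -3.34, SE 0.26, adjusted p = 9.89e-12).

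MA_10432303g0020 had 0.0696, 0.779 and 0.54 CPM on day 5, 202, 275 and 288 CPM on day 10 and 466, 556 and 636 CPM on day 15 under IAA. It had 0.457, 0.18 and 0.247 CPM on day 5, 1.41, 0.981 and 1.03 CPM on day 10 and 7.44, 7.77 and 2.66 CPM on day 15 under BAP+IAA, against 1.25, 2.19 and 1.88 CPM on day 5, 2.59, 2.94 and 1.49 CPM on day 10 and 1.75, 2.4 and 3.75 CPM on day 15 in mock. Under BAP+IAA it was lower on day 5 (log2 fold change -2.59, SE 0.56, adjusted p = 0.000441) and higher on day 15 (1.15, SE 0.34, adjusted p = 0.00729), though 1 library of day 15 lay within the mock range. MA_241174g0010, the gamma-tocopherol methyltransferase gene, had 0.139, 0.433 and 0.405 CPM on day 5, 228, 359 and 330 CPM on day 10 and 780, 797 and 791 CPM on day 15 under IAA. It had 0.522, 0.0602 and 0.148 CPM on day 5, 2.96, 0.519 and 1.03 CPM on day 10 and 11.2, 6.61 and 3.06 CPM on day 15 under BAP+IAA, against 0.125, 2.05 and 0.429 CPM on day 5, 0.148, 0.467 and 1.12 CPM on day 10 and 1.05, 1.08 and 1.28 CPM on day 15 in mock. On day 15 both hormone groups were above mock, and the BAP+IAA value was called (log2 fold change 2.57, SE 0.57, adjusted p = 0.000626). The average of days was not called for either gene (-0.82 and 0.66).

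A gene with a description cut short to zeaxanthin, chloroplastic-like (MA_10427607g0010) had 955, 1025 and 1018 CPM under IAA on day 10 and 141, 206 and 221 CPM under BAP+IAA, against 177, 327 and 291 CPM in mock. BAP+IAA overlapped with mock on that day. On day 15 it was lower (log2 fold change -1.10, SE 0.37, adjusted p = 0.0168). Its average under BAP+IAA, -0.71 (SE 0.21, adjusted p = 0.00458), was under the fold threshold. In the flavonoid pathway, the anthocyanidin reductase gene MA_10052810g0010, which makes epicatechin for condensed tannins, stood at the fold threshold with 2.25 to 4.62 CPM under BAP+IAA, against 4.31 to 9.58 CPM in mock (log2 fold change rounded to -1, SE 0.19, adjusted p = 5.09e-05). It was not called, and fits without 1 library put it on either side.

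**Figure D4:**
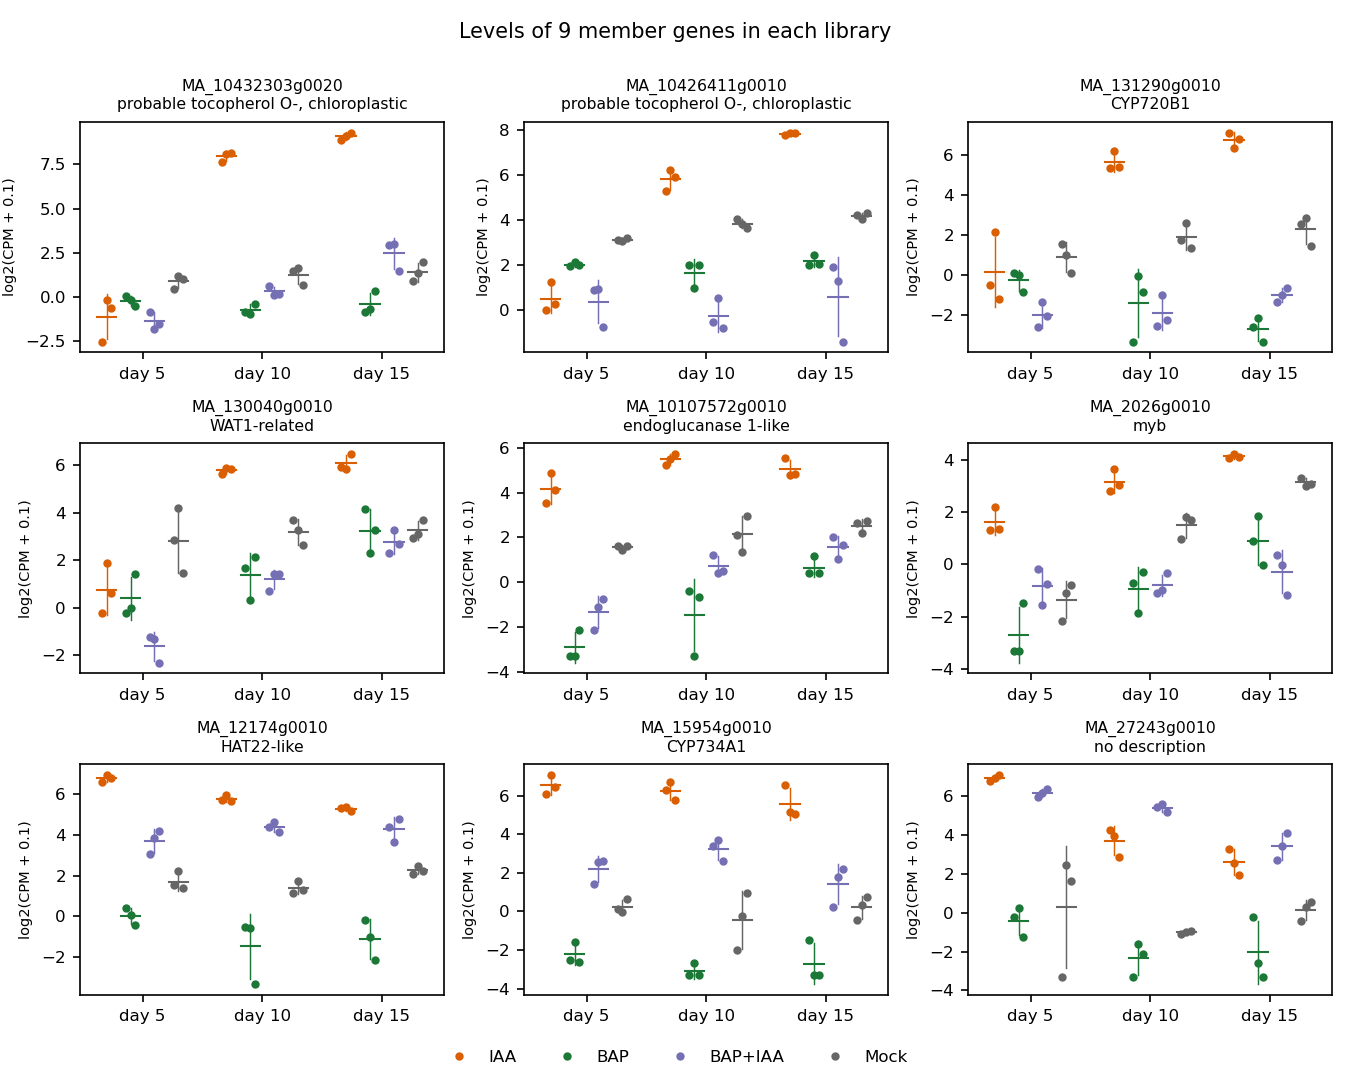
Levels of 9 members as log2(CPM + 0.1) in each library (points), with the mean and SD of 3 libraries (bars), for IAA, BAP, BAP+IAA and mock on days 5, 10 and 15. HAT22-like, CYP734A1 and MA_27243g0010 were above mock under BAP+IAA in the average of days, and the endoglucanase, CYP720B1, WAT1-related and myb genes and MA_10426411g0010 below it.

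Of the 5 members in the transcription factor group, 3 fell, 1 rose and 1 was not called. The homeobox-leucine zipper HAT22-like gene MA_12174g0010 had 8.22, 14.2 and 18.1 CPM on day 5, 20.4, 24.9 and 17.6 CPM on day 10 and 20.7, 12.2 and 27.6 CPM on day 15 under BAP+IAA, against 2.75, 4.53 and 2.52 CPM on day 5, 2.14, 3.2 and 2.34 CPM on day 10 and 4.15, 5.39 and 4.61 CPM on day 15 in mock. BAP+IAA was above mock in every library and day, and the gene rose (log2 fold change 2.38, SE 0.19, adjusted p = 2.11e-11). Under IAA it had 35.6 to 121 CPM, above all BAP+IAA libraries, and under BAP 0 to 1.21 CPM. The WRKY 14 gene MA_10432914g0010, of a family known for defence and stress responses, had 1.83, 1.02 and 0.988 CPM on day 5, 0.74, 0.231 and 0.287 CPM on day 10 and 0.9, 0.477 and 0.613 CPM on day 15 under BAP+IAA, against 3.31, 2.92 and 6.27 CPM on day 5, 3.4, 4.01 and 5.96 CPM on day 10 and 3.51, 3.83 and 2.34 CPM on day 15 in mock. The groups did not overlap, and it fell (log2 fold change -2.50, SE 0.23, adjusted p = 1.72e-10). The bZIP 11-like gene MA_38931g0010, which is on the study's list of graft transcription factors, had 0.981 to 3.34 CPM under BAP+IAA, against 1.24 to 3.45 CPM in mock, and was not called (log2 fold change -0.20, SE 0.20, adjusted p = 0.391).

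The myb gene MA_2026g0010 had 2.37, 4.46 and 2.43 CPM on day 5, 6.98, 12.4 and 8.15 CPM on day 10 and 16.6, 18.9 and 17.1 CPM on day 15 under IAA. It had 0.783, 0.241 and 0.494 CPM on day 5, 0.37, 0.404 and 0.69 CPM on day 10 and 1.2, 0.886 and 0.34 CPM on day 15 under BAP+IAA, against 0.125, 0.366 and 0.482 CPM on day 5, 1.85, 3.47 and 3.14 CPM on day 10 and 9.88, 8.02 and 8.43 CPM on day 15 in mock. IAA libraries were above the mock of every day, whereas BAP+IAA libraries overlapped with mock on day 5 and lay below it later. In the average of days the gene fell under BAP+IAA (log2 fold change -1.79, SE 0.34, adjusted p = 4.44e-05). It also changed in mock itself, where it rose on day 15 against day 5 (log2 fold change 4.70, SE 0.54, adjusted p = 2.86e-05).

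SMR1 (MA_10433795g0010) encodes a cyclin-dependent kinase inhibitor, of a family that holds back the cell cycle in Arabidopsis. It had 4.31, 3.61 and 4.5 CPM on day 5, 1.78, 0.519 and 0.977 CPM on day 10 and 1.14, 0.0681 and 1.02 CPM on day 15 under BAP+IAA, against 8.25, 7.82 and 4.98 CPM on day 5, 4.14, 5.67 and 6.55 CPM on day 10 and 5.9, 5.45 and 4.46 CPM on day 15 in mock, with no overlap on any day (log2 fold change -1.99, SE 0.24, adjusted p = 2.95e-08). The RING-H2 finger gene MA_229590g0010, ATL13-like and of a family of ubiquitin ligases, had 1.09 to 3.52 CPM under BAP+IAA, against 7.94 to 15.4 CPM in mock, and fell (log2 fold change -2.53, SE 0.15, adjusted p = 6.27e-15).

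Of the 8 transport members, 5 fell and 3 were not called. The NRT1/PTR family gene MA_24116g0010, of carriers for nitrate, peptides and hormones, had 0.326, 1.14 and 0.988 CPM on day 5, 4.81, 3.81 and 0.805 CPM on day 10 and 5.64, 3.61 and 0.953 CPM on day 15 under BAP+IAA, against 1.19, 8.04 and 12.3 CPM on day 5, 12.4, 10.2 and 8.57 CPM on day 10 and 10.6, 8.2 and 12.8 CPM on day 15 in mock. It lay below mock in each group of a day and fell (log2 fold change -2.17, SE 0.37, adjusted p = 1.36e-05). The oligopeptide transporter 7-like gene MA_18676g0010 had 0.247 to 1.37 CPM under BAP+IAA, against 1.07 to 3.97 CPM in mock, and fell (log2 fold change -1.94, SE 0.28, adjusted p = 7.48e-07), with overlap on day 5 alone. WAT1 in Arabidopsis is a vacuolar auxin carrier needed for secondary walls. MA_130040g0010 had 0.326, 0.301 and 0.0988 CPM on day 5, 1.55, 2.6 and 2.59 CPM on day 10 and 4.86, 9.54 and 6.4 CPM on day 15 under BAP+IAA, against 7.07, 18.1 and 2.63 CPM on day 5, 12.7, 9.55 and 6.07 CPM on day 10 and 7.66, 8.56 and 12.9 CPM on day 15 in mock. It fell in the average (log2 fold change -2.61, SE 0.39, adjusted p = 1.88e-06), but on day 15 the groups overlapped. MA_112555g0010 had 11, 14.7 and 11.1 CPM on day 5, 13.6, 13.8 and 18.2 CPM on day 10 and 15.4, 15.2 and 14.9 CPM on day 15 under BAP+IAA, against 4.5, 5.48 and 6.75 CPM on day 5, 8.2, 5.74 and 5.75 CPM on day 10 and 8.59, 9.94 and 9.64 CPM on day 15 in mock. All BAP+IAA libraries lay above the mock libraries of their day, with an average at the fold threshold (log2 fold change 1.00, SE 0.21, adjusted p = 0.000152) that was not called.

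Asparagine synthetase (MA_10428957g0010), which makes the amide used for nitrogen transport and storage, had 5.29, 11 and 9.73 CPM on day 5, 377, 337 and 383 CPM on day 10 and 440, 394 and 411 CPM on day 15 under IAA. It had 1.24, 8.48 and 4.74 CPM on day 5, 7.7, 3.52 and 2.99 CPM on day 10 and 28, 5.52 and 6.54 CPM on day 15 under BAP+IAA, against 5.5, 27.9 and 22.2 CPM on day 5, 37.8, 79.8 and 56.3 CPM on day 10 and 70, 70.4 and 101 CPM on day 15 in mock. It fell under BAP+IAA (log2 fold change -2.74, SE 0.37, adjusted p = 4.11e-07), with overlap on day 5. The short-chain dehydrogenase reductase 2a-like gene MA_181810g0010 had 0, 0.0865 and 0 CPM on day 5, 13.1, 26.4 and 16.5 CPM on day 10 and 102, 131 and 167 CPM on day 15 under IAA. It had 0.0652, 0.301 and 0.0494 CPM on day 5, 0, 0.173 and 0.23 CPM on day 10 and 1.32, 0.818 and 0.204 CPM on day 15 under BAP+IAA, against 0.563, 0.731 and 1.02 CPM on day 5, 1.7, 2.14 and 2.77 CPM on day 10 and 2.28, 5.33 and 3.4 CPM on day 15 in mock. It fell under BAP+IAA (log2 fold change -2.87, SE 0.41, adjusted p = 7.54e-07). The fatty acyl reductase 3-like gene MA_10122399g0010, of enzymes that make wax alcohols, had 0.196 to 2.64 CPM under BAP+IAA, against 4.31 to 13.1 CPM in mock, and fell (log2 fold change -2.99, SE 0.19, adjusted p = 3.57e-14). The inactive purple acid phosphatase 27 gene MA_111037g0010 also fell (log2 fold change -2.67, SE 0.27, adjusted p = 1.43e-09). The glutamate carboxypeptidase LAMP1 gene MA_12996g0010 (log2 fold change -0.30, SE 0.25, adjusted p = 0.306) and the HAD-superfamily gene MA_272181g0010 (log2 fold change -0.20, SE 0.23, adjusted p = 0.449) were not called.

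Of the 5 defence and stress members, 3 fell and 2 were not called. The pathogen-related-like gene MA_10397774g0020 had 0 counts in 6 of the 9 BAP+IAA libraries and 0, 0 and 0.346 CPM on day 5, 0, 0.0577 and 0 CPM on day 10 and 0, 0 and 0.0681 CPM on day 15, against 0.875, 0.658 and 0.536 CPM on day 5, 0.813, 1.94 and 2.45 CPM on day 10 and 1.05, 2.58 and 1.84 CPM on day 15 in mock. It fell (log2 fold change -4.76, SE 0.58, adjusted p = 3.37e-08), and this fold rests on few reads. The disease resistance gene MA_261860g0010 had 5.17 to 19.5 CPM under BAP+IAA, against 24.8 to 56.2 CPM in mock, and fell (log2 fold change -1.83, SE 0.19, adjusted p = 2.46e-09).

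The highest and the lowest log2 fold change under BAP+IAA belonged to members without a description. MA_27243g0010 had 61.9, 71.3 and 83.5 CPM on day 5, 43.2, 48.9 and 35.9 CPM on day 10 and 6.54, 10.8 and 17.2 CPM on day 15 under BAP+IAA, against 0, 5.48 and 3.05 CPM on day 5, 0.37, 0.401 and 0.426 CPM on day 10 and 0.643, 1.14 and 1.35 CPM on day 15 in mock. It was above mock in each library and rose (log2 fold change 4.94, SE 0.38, adjusted p = 1.6e-11). MA_15539g0010 had 211, 220 and 261 CPM on day 5, 182, 181 and 162 CPM on day 10 and 70.2, 84.3 and 98.3 CPM on day 15 under BAP+IAA, against 7.38, 42.2 and 30.7 CPM on day 5, 12, 37.4 and 16.6 CPM on day 10 and 25, 33.7 and 42.1 CPM on day 15 in mock, and rose (log2 fold change 2.46, SE 0.28, adjusted p = 2.6e-08) with no overlap. Of the other members called higher on all 3 days, MA_3069g0010 had 5.94 to 17.5 CPM under BAP+IAA, against 0.875 to 5.03 CPM in mock (log2 fold change 2.24, SE 0.27, adjusted p = 3.02e-08), and MA_114720g0010 had 37 to 154 CPM under BAP+IAA, against 8.06 to 26 CPM in mock (log2 fold change 2.23, SE 0.24, adjusted p = 8.52e-09).

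At the other end, MA_334549g0010 had 0.326, 0.241 and 0.247 CPM on day 5, 0.148, 0 and 0.172 CPM on day 10 and 0.24, 0.409 and 0.272 CPM on day 15 under BAP+IAA, against 4.19, 4.39 and 5.36 CPM on day 5, 8.2, 8.41 and 12.5 CPM on day 10 and 10.7, 13.6 and 8.08 CPM on day 15 in mock. It fell (log2 fold change -5.23, SE 0.25, adjusted p = 1.04e-16) with no overlap on any day. The size of this fold rests on 0 to 6 reads in each BAP+IAA library. MA_8933673g0010 had 0 to 0.48 CPM under BAP+IAA, against 2.22 to 6.66 CPM in mock, and fell (log2 fold change -4.88, SE 0.38, adjusted p = 3.15e-12). Its fold rests on 0 to 8 reads in each BAP+IAA library. MA_337265g0010 had 0 to 0.545 CPM under BAP+IAA, against 0.188 to 7.43 CPM in mock, and fell (log2 fold change -4.05, SE 0.61, adjusted p = 1.77e-06), with 5 of 9 BAP+IAA libraries at 0. Of the first 5 members by score, MA_15278g0010 rose (log2 fold change 1.37, SE 0.40, adjusted p = 0.00455), with overlap on days 5 and 15, and MA_86938g0010 fell (log2 fold change -1.51, SE 0.14, adjusted p = 2.2e-10). MA_894565g0010 (log2 fold change 0.17, SE 0.17, adjusted p = 0.417) and MA_86195g0010 (log2 fold change -0.11, SE 0.19, adjusted p = 0.639) were not called.

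The change of a response between day 5 and day 15 was taken as the difference of both days' fold changes. Under IAA, the response of 52 members was larger and of 12 smaller on day 15 than on day 5, while 5.85% and 2.59% of all tested genes were called so. The rule took the mean over days of the same libraries, and members had to respond on at least 1 of them, so these changes are a description and the share is not compared with this background. Of the 10 members called lower under IAA on day 5, all 10 were called higher on day 15. A member below mock on day 5 had to lie above it later to reach the rule's mean. Nothing is thus read from this count. Among the genes named here, MA_62726g0010 had 0.139, 0 and 0 CPM on day 5, 2.37, 1.32 and 1.32 CPM on day 10 and 10, 19.8 and 22.2 CPM on day 15 under IAA, against 4.63, 2.41 and 0.107 CPM on day 5, 0, 2.07 and 2.82 CPM on day 10 and 0, 0 and 0.0708 CPM on day 15 in mock. The fitted change of 14.91 rests on groups at or near 0 counts, IAA on day 5 and mock on day 15. The change was 10.65 in MA_241174g0010 (SE 1.21) and 9.51 in MA_10432303g0020 (SE 0.59). It was 9.63 in MA_10270336g0010 and 9.30 in MA_181810g0010, each with 0, 2 and 0 counts under IAA on day 5, so these folds also rest on a group near 0. Without 1 library they ran from 8.43 to 12.22 and from 8.90 to 11.89.

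**Figure D5:**
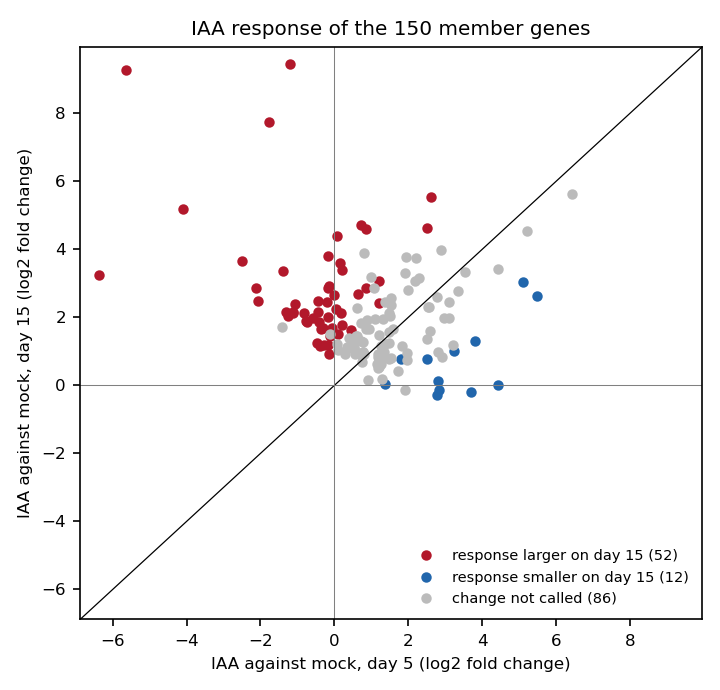
IAA against mock as log2 fold change on day 5 (x axis) and day 15 (y axis) for each of the 150 members, with the line of equal values. The 52 members with a larger response on day 15 lie above the line, many of them near or left of 0 on the x axis, and the 12 with a smaller response lie below it.

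The members with a smaller IAA response on day 15 had a median log2 fold change under IAA of 3.03 on day 5, 1.47 on day 10 and 0.45 on day 15. The fold changes of days 5 and 15 formed this group, so the order of their medians was set by the grouping. MA_27243g0010 had 110, 124 and 137 CPM on day 5, 19.3, 15.6 and 7.25 CPM on day 10 and 9.61, 5.74 and 3.8 CPM on day 15 under IAA, and MA_15539g0010 had 352, 327 and 349 CPM on day 5, 66.7, 52.6 and 31.6 CPM on day 10 and 20.7, 41.4 and 25.9 CPM on day 15. In both genes the IAA libraries of day 5 lay above those of days 10 and 15. The call of MA_27243g0010 was lost in 8 of 12 fits without 1 library (-3.62 to -2.24), with DESeq2 and with no low-count filter. HAT22-like MA_12174g0010, with 95.6, 121 and 111 CPM on day 5, 51.1, 61.3 and 49.7 CPM on day 10 and 38.9, 41.5 and 35.6 CPM on day 15 under IAA, had the same order. The members with a larger response, grouped in the same way, had medians of -0.23, 2.21 and 2.40 on these days.

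Under BAP+IAA, the response of 11 members was higher and of 9 lower on day 15 than on day 5, against 1.39% and 1.79% of all tested genes. The mock libraries of both days took part in the choice of members, so nothing is read from these shares. The counts without 1 library ran from 6 to 13 and from 6 to 10, and the 11 became 6 without BAP+IAA day 15 replicate 1 and 7 without BAP+IAA day 5 replicate 1. The change was higher in the WAT1-related gene MA_130040g0010 (4.73, SE 1.03, adjusted p = 0.00521) and in MA_10432303g0020 (3.74, SE 0.65, adjusted p = 0.000535), and lower in the myb gene MA_2026g0010 (-4.04, SE 0.83, adjusted p = 0.00271). In the myb gene, mock itself rose, as given above.

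Apart from MA_10432303g0020, 3 members without a description were called in both directions on different days under BAP+IAA. MA_464836g0010 had 0.0652, 0.12 and 0.148 CPM on day 5, 1.63, 0.981 and 1.38 CPM on day 10 and 1.86, 1.09 and 2.86 CPM on day 15 under BAP+IAA, against 0.625, 1.32 and 1.61 CPM on day 5, 0.443, 0.935 and 0.106 CPM on day 10 and 0.993, 0.958 and 0.496 CPM on day 15 in mock. It thus lay below mock on day 5 and above it on days 10 and 15. All 6 of its BAP libraries of days 10 and 15 were at 0 counts. MA_6800g0010 had 65, 78.3 and 79 CPM on day 5, 37.2, 60.2 and 40.1 CPM on day 10 and 7.62, 10.4 and 14.5 CPM on day 15 under BAP+IAA, against 18.1, 31.4 and 33.4 CPM on day 5, 23.4, 31 and 30.4 CPM on day 10 and 27.1, 31.1 and 33.6 CPM on day 15 in mock. It lay above mock on days 5 and 10 and below it on day 15. MA_1618899g0010 had 6.07, 6.56 and 6.18 CPM on day 5, 2.59, 6 and 3.56 CPM on day 10 and 0.42, 0.273 and 1.16 CPM on day 15 under BAP+IAA, against 1.06, 3.07 and 3.27 CPM on day 5, 2.88, 1.87 and 3.89 CPM on day 10 and 2.57, 1.86 and 4.75 CPM on day 15 in mock. It lay above mock on day 5 and below it on day 15.

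Under BAP, no member's response was higher and that of 1 member, MA_10434025g0010, was lower on day 15 than on day 5 (-2.29, SE 0.54), a call lost in 6 of 12 fits without 1 library (-2.85 to -2.04). Over all tested genes, 0.695% and 0.555% were called so by edgeR. The BAP and mock libraries chose the members, so nothing is read from these shares. At an unadjusted p below 0.05 there were 12 and 26 members, and DESeq2 called 5 and 8. The shares above do not hold for these 2 counts, and no share over all tested genes is given for them. Without 1 library the edgeR counts ran from 0 to 2 and from 0 to 3, with 3 lower without BAP day 15 replicate 1 and 0 lower once either BAP day 15 replicate 3 or, of mock, day 5 replicate 3 was left out. Without mock day 5 replicate 1 they were 2 higher and 2 lower, and without mock day 15 replicate 3 they were 2 lower. Leaving out replicate 2 or 3 of the BAP libraries of day 5, or the third mock library of that day, gave 1 higher. In mock day 15 against mock day 5, 10 members rose and 1 fell, against 0.772% and 0.318% of all tested genes. The mock libraries took part in the choice of members, so nothing is read from this comparison either. The 10 became 4 without mock day 15 replicate 2, 3 without mock day 5 replicate 1 and 5 without mock day 5 replicate 2. The member called lower, MA_62726g0010, had 0, 0 and 0.0708 CPM in mock day 15, against 4.63, 2.41 and 0.107 CPM in mock day 5, and kept its call only without mock day 5 replicate 3, of the 6 fits that leave out 1 of these libraries.

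Some members lie as pairs on 3 scaffolds of the genome assembly, by their IDs, which count genes along a scaffold. Over the 36 libraries the log2 CPM of the pairs had Pearson's r of 0.92 (MA_44394g0010 and MA_44394g0020), 0.88 (MA_6150g0010 and MA_6150g0020) and 0.96 (MA_90677g0010 and MA_90677g0020), given as a description, since members were chosen for a like pattern. Whether a pair is 2 genes or parts of 1 was not analysed here.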

How the data were processed

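RNA of the middle hypocotyl was sequenced in 36 libraries. The deposited file holds read counts per gene, whole numbers that the authors made by removing rRNA reads with SortMeRNA, filtering with fastp, aligning to the first Picea abies genome with STAR and counting with HTSeq for the reverse strand. The treatment of reads that map to several genes is not stated. The authors' own DESeq2 comparisons were not used. CPM are counts scaled to a library total of 1e6. Libraries held 13188942 to 23110495 counts, which limits the precision for low genes.

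Counts were tested with edgeR 4.0.16 (R 4.3.3, limma 3.58.1): filterByExpr, TMM factors, 12 group means over all 36 libraries and the robust quasi-likelihood test, with Benjamini-Hochberg adjustment over 38732 genes. Standard errors are the log2 fold change divided by the square root of F. Replicates are separate pools of plants. The script was tested on simulated data. Tried in turn were a replicate block, size factors by RLE, testing without the filter, DESeq2 1.42.0, no fold threshold, leaving out each library, and 2 other choices of members.

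Named were the 5 members with the largest score, at most 30 described members in order of score, the 5 that rose and the 5 that fell most under BAP+IAA, the genes beside rank 150 and members the study lists by ID, which gave 44 members. Another 11 were named after their values were seen. The members and lists were chosen with earlier results of these data known. No sequences were analysed here.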

Additional observations from a re-analysis of the deposited data

Results flagged for a closer look

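Responses that differed between day 15 and day 5, by a test of the difference of both fold changes in the edgeR model, were singled out. Under IAA they were higher on day 15 in 52 members and lower in 12, under BAP+IAA higher in 11 and lower in 9, and under BAP higher in 0 and lower in 1. No group had 4 or more samples, so no search for a library far from its group was made.

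Of the genes named, the log2 change of the BAP+IAA response was 4.73 in MA_130040g0010, 4.49 in MA_464836g0010, 4.35 in MA_241174g0010, 3.74 in MA_10432303g0020 and 1.84 in MA_10122399g0010. It was -4.04 in MA_2026g0010, -3.66 in MA_1618899g0010, -2.95 in MA_6800g0010, -2.11 in MA_10434025g0010, -2.07 in MA_10433795g0010 and -1.26 in MA_229590g0010. Of 12 fits without 1 library, the call was lost in 7 for MA_229590g0010 (-1.43 to -1.05), 6 for MA_10433795g0010 (-2.53 to -1.54), 4 for MA_241174g0010 (2.92 to 5.41) and 3 for MA_10122399g0010 (1.57 to 2.43). The log2 change of the BAP response was -2.29 in MA_10434025g0010, with the call lost in 6 of 12 such fits (-2.85 to -2.04).

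The log2 change of the IAA response was 14.91 in MA_62726g0010, 10.65 in MA_241174g0010, 9.63 in MA_10270336g0010, 9.51 in MA_10432303g0020, 9.30 in MA_181810g0010, 6.17 in MA_10426411g0010, 4.98 in MA_130040g0010, 4.32 in MA_131290g0010, 3.98 in MA_10099693g0010, 3.43 in MA_10428957g0010, 3.25 in MA_12160g0010, 3.18 in MA_130858g0010, 2.93 in MA_24116g0010, 2.68 in MA_106402g0010, 2.66 in MA_86938g0010, 2.64 in MA_272181g0010, 2.59 in MA_111037g0010, 2.20 in MA_261860g0010, 1.43 in MA_10122399g0010 and 1.38 in MA_10428092g0010. It was -3.89 in MA_15539g0010, -3.07 in MA_6800g0010, -2.95 in MA_1618899g0010, -2.85 in MA_27243g0010, -2.66 in MA_3069g0010, -2.50 in MA_24001g0010, -2.23 in MA_2026g0010 and -2.06 in MA_12174g0010. Of 12 fits without 1 library, the call was lost in 8 for MA_27243g0010 (-3.62 to -2.24), 6 for MA_24001g0010 (-3.43 to -1.98), 2 for MA_2026g0010 (-2.68 to -1.84), 1 for MA_24116g0010 (2.26 to 3.71) and 1 for MA_130858g0010 (2.14 to 4.81). The values of MA_62726g0010, MA_10270336g0010 and MA_181810g0010 rest on groups at or near 0 counts. The libraries behind these values also chose the members.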

How the results depend on the processing

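The counts under BAP+IAA in the average of days were 11 to 14 higher and 69 to 73 lower without 1 library. Of the members called, 11 of 12 and 66 of 71 were called in every setting, with the replicate block left out of this tally. With the block, 12 of 12 and 70 of 71 kept their call. With no fold threshold 22 were higher and 91 lower, and on day 5 22 were higher and 73 lower. No share over all tested genes is given for counts with no fold threshold, here or below, so they are a description. With every gene past both thresholds kept (339 genes), 40 were higher and 123 lower, against 11.8% and 12.4% of all tested genes. A choice of members on TMM-scaled CPM shared 144 of 150. On single days, counts without 1 library were 13 to 17 higher and 54 to 65 lower (day 5), 15 to 17 and 55 to 66 (day 10), and 10 to 12 and 55 to 62 (day 15).

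The change of the BAP+IAA response had 6 to 13 higher and 6 to 10 lower without 1 library, that of the IAA response 46 to 53 and 9 to 12, and that of the BAP response 0 to 2 and 0 to 3. For BAP, DESeq2 gave 5 higher and 8 lower, and no fold threshold 2 lower. Mock day 15 against mock day 5 had 3 to 11 higher and 0 to 3 lower without 1 library, and 2 lower with RLE size factors, 0 with no low-count filter, 3 with DESeq2 and 2 with no fold threshold. With no fold threshold, 25 pectin methyl esterases were higher and 18 lower, and 33 graft transcription factors were higher. The cause was not tested, apart from the looser rule with no fold threshold.

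Same-numbered libraries of a treatment and mock did not deviate together by more than 0.1 in every pair of any comparison with mock, so the numbers were not taken as pairs. On day 15 each correlated best with its own number. On days 5 and 10 replicate 1 did so under every treatment and replicate 2 under none. Replicate 3 did so under BAP on day 5 and under BAP+IAA on day 10 alone. Each mock library of day 15 also correlated best with the mock library of its number on day 5 (0.168, 0.163 and 0.0291). The limit of 0.1 thus does not show that same-numbered libraries were independent. With a replicate block, the change of the BAP response had 1 higher and 4 lower.

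The log2 fold change under BAP+IAA changed sign without 1 library in MA_894565g0010 (-0.01 without BAP+IAA day 15 replicate 1, range to 0.30), MA_177599g0010 (0.06 without mock day 10 replicate 3, range from -0.23), MA_464836g0010 (0.08 without mock day 10 replicate 2, range from -0.40) and MA_10434025g0010 (0.10 without mock day 5 replicate 2, range from -0.19), none of them called. Of the values of named genes, 4 lost their call and 9 gained one under the other alternatives, while 58 lost and 19 gained one without 1 library. Depth limits genes such as MA_62726g0010 and MA_10397774g0020, with many libraries at 0 counts.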
